A study of Homo sapiens with 4 samples.

Results

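The genes described are 9 that encode AP-1 transcription factors: FOS, FOSB, FOSL1, FOSL2, JUN, JUNB, JUND, BATF3 and ATF3. Their regions were chosen by position alone, as every region of the authors' deposited table that overlapped the span of 1 of these genes in RefSeq GRCh38.p14 extended by 20 kb on both sides. This rule gave 61 of the 125986 regions listed, between 4 (JUN) and 11 (ATF3) for each gene. Open chromatin was profiled by ATAC-seq, an assay where Tn5 transposase inserts adapters into accessible DNA, in A375, an established human melanoma cell line grown in serum. Octanoate, a fatty acid of medium chain length, was given at 1 mM for 48 h in 1 group, and in the other the vehicle isopropanol was given for the same time, with 2 libraries in each group. Octanoate was compared with vehicle to find changes in open chromatin. The labels do not say whether the libraries came from separate cultures, so the p-values measure the spread between these libraries, which may be technical.

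AP-1 is a dimer of basic leucine zipper proteins. JUN, JUNB and JUND can pair with themselves or with a FOS protein, whereas FOS, FOSB, FOSL1 and FOSL2 need a JUN partner, and BATF3 and ATF3 pair with JUN proteins as well. The dimers bind the TPA response element (TRE), and those with an ATF subunit also bind the cAMP response element (CRE). FOS, FOSB, JUN, JUNB and ATF3 are immediate early or stress-induced genes, and in melanoma AP-1 lies downstream of the BRAF and ERK pathway and is linked to the dedifferentiated state.

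Sequences before 4 of the starts are shown: JUN for the strongest start region, FOS for a start with an unadjusted p under 0.05, JUND for its whole CRE and FOSB for the 1 start with a value below 0. They are the 250 bases before the RefSeq start (GRCh38.p14), 5′ to 3′, with matches to the CRE (TGACGTCA), its variant TGACATCA and its core TGACG in capitals. They lie at chr1:58784048-58784297 (JUN, minus strand), chr14:75278578-75278827 (FOS, plus strand), chr19:18281623-18281872 (JUND, minus strand) and chr19:45467746-45467995 (FOSB, plus strand).
JUN: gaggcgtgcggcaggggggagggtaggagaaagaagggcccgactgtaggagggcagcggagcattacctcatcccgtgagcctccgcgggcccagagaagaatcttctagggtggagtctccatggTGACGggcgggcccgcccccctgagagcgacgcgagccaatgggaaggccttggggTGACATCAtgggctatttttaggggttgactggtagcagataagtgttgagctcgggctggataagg
FOS: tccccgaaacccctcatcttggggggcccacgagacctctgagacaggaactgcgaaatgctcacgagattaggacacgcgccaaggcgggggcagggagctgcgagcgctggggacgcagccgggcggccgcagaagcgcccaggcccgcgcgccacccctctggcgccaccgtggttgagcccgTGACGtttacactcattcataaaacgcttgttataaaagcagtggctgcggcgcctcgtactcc
JUND: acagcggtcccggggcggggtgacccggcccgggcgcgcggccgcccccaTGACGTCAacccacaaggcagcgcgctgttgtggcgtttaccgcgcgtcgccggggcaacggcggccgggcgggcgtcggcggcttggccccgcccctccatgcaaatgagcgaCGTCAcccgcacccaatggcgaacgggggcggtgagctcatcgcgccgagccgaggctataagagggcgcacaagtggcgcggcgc
FOSB: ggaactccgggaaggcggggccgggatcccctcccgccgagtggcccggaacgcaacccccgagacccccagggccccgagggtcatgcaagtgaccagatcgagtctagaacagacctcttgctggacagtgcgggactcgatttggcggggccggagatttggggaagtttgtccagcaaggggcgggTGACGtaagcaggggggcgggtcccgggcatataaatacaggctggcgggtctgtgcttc

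In the JUN promoter the variant TGACATCA stood at positions -67 to -60, counted from the base before the start as -1. The FOS core stood at -64 to -60 and the FOSB core at -60 to -56, in all 3 cases close to the start. JUND held the whole CRE at -200 to -193 and a further core, in capitals as its complement, at -86 to -82. The promoter table used matched 7 of the 9 genes with 8 promoters in all, since ATF3 has 2, and did not match FOSL1 and BATF3. The TRE (TGANTCA) was found in 0 of the 8, against 6.57% of 35116 promoters, and the CArG box, the binding site of SRF, in 0 of the 8, against 1.16%. TGACGTCA was in 1 of 8 (1.65% of all), TGACATCA in 2 of 8, JUN and the upstream of the ATF3 starts (2.37% of all), and TGACG, which overlaps the whole CRE, in 6 of 8 (21.2% of all). The GC box GGGCGG was in 6 of 8 (42.6% of all), CCAAT in 4 of 8 (32.0%) and TATAAA in 4 of 8 (10.7%). Both strands of the 250 bases before each start were searched. A site further upstream, of SRF or another factor, would not be found, so a count of 0 covers this stretch only. The letters TGACATCA and TGACG were added to the search after the sequences were seen, and a match describes letters only.

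Most of these genes carried a broad and strong open region at the start. A region covered a start of 8 of the 9 genes. The exception was ATF3, which has an upstream and an inner start in RefSeq. The region nearest the upstream start began 1.21 kb after it, and the region nearest the inner start ended 1.12 kb before it. For 5 of the 9 genes the start region was also the strongest of the window. The mean normalised read count over the 4 libraries in the authors' deposited table ranged from 25.0 at the FOSB start to 508 at the JUN start. Of the 8 start regions, 6 were stronger and 7 were wider than the median start region of protein-coding genes, which had a mean of 66.1 and a width of 1207 bp. The JUN region covered the whole gene in 6162 bp, and of all 125986 regions 14 had a higher mean and 20 were wider.

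**Figure D1:**
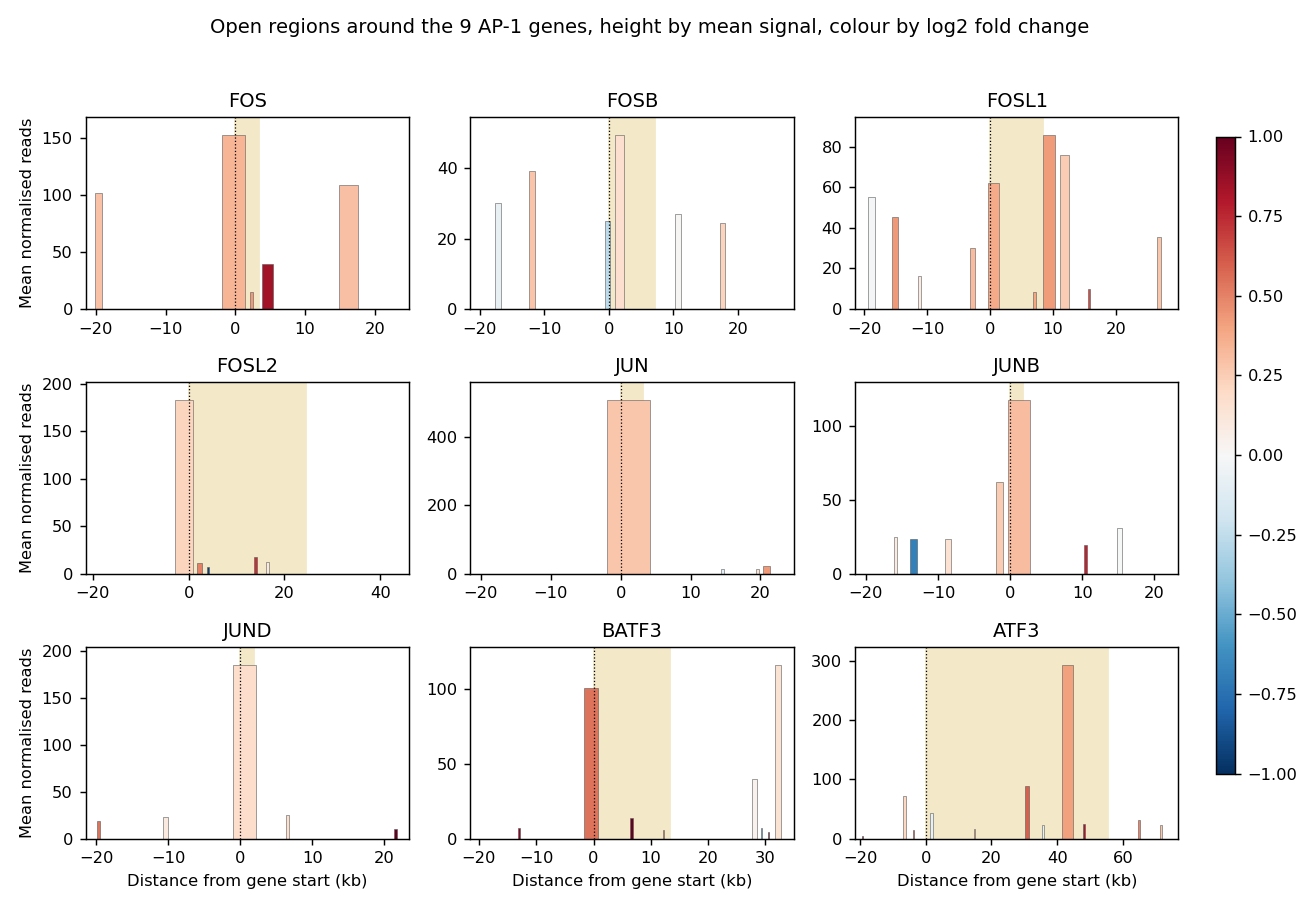
Open regions in the windows of the 9 genes, drawn to scale by distance from the gene start in kb (the upstream start for ATF3). Bar height is the mean normalised read count over the 4 libraries, on an axis of its own for each gene, colour is the log2 fold change of octanoate over vehicle, and the gene span is shaded. JUN has 1 dominant region at 508, and the strongest ATF3 region, at 293, lies inside the gene.

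No AP-1 gene region passed the authors' test. In the authors' deposited table (DESeq2, Benjamini-Hochberg), 0 of the 14 tested regions had an adjusted p under 0.05, against 1.02% of all 11185 tested regions. Tested regions are those covered by the deposited adjustment, with a mean of at least 63.8. The other 47 of the 61 regions lay below that mean, are listed with an adjusted p of 1, and were treated as not tested. FOSB had 0 tested regions, FOS and ATF3 had 3 each, FOSL1 and BATF3 had 2 each, and FOSL2, JUN, JUNB and JUND had 1 each. At an unadjusted p under 0.05 in the authors' deposited table, 8 of the 61 were higher after octanoate and 0 were lower, with 3.58% and 0.179% of all regions. These 8 belonged to ATF3 (2), BATF3 (2), FOS (2), JUN (1) and JUND (1). Among the tested regions they were 5 of 14, with 14.8% of all tested regions higher and 0.107% lower at that level, and among the others 3 of 47, with 2.48% of all regions not tested. No test of these shares was made.

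The distribution of fold changes over the whole table was centred above 0, and that of the AP-1 genes was too. By the authors' deposited table, the 61 regions had a median log2 fold change of 0.28, all regions 0.23 and all tested regions 0.19. With 1 value per gene the AP-1 median was 0.224, which did not exceed the 0.229 of all regions. Positive values were found in 51 of the 61 (83.6%), against 72.1% of all regions, and in 14 of the 14 tested, against 85.7% of all tested regions. After the tested median was subtracted from each fold change, 39 of the 61 stayed above 0, against 54.3% of all regions. Among tested regions these were 12 of 14, against 50% of all tested regions, a share the subtraction itself sets. Then 2 regions instead of 8 had an unadjusted p under 0.05. The 1 higher, against 1.08% of all regions, was a weak region 21.4 kb downstream of the JUND start. The 1 lower, against 0.604% of all, lay 13.0 kb upstream of JUNB at a HOOK2 start. The adjusted p of each tested AP-1 gene region was then 1, and 0.0536% of all tested regions passed.

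**Figure D2:**
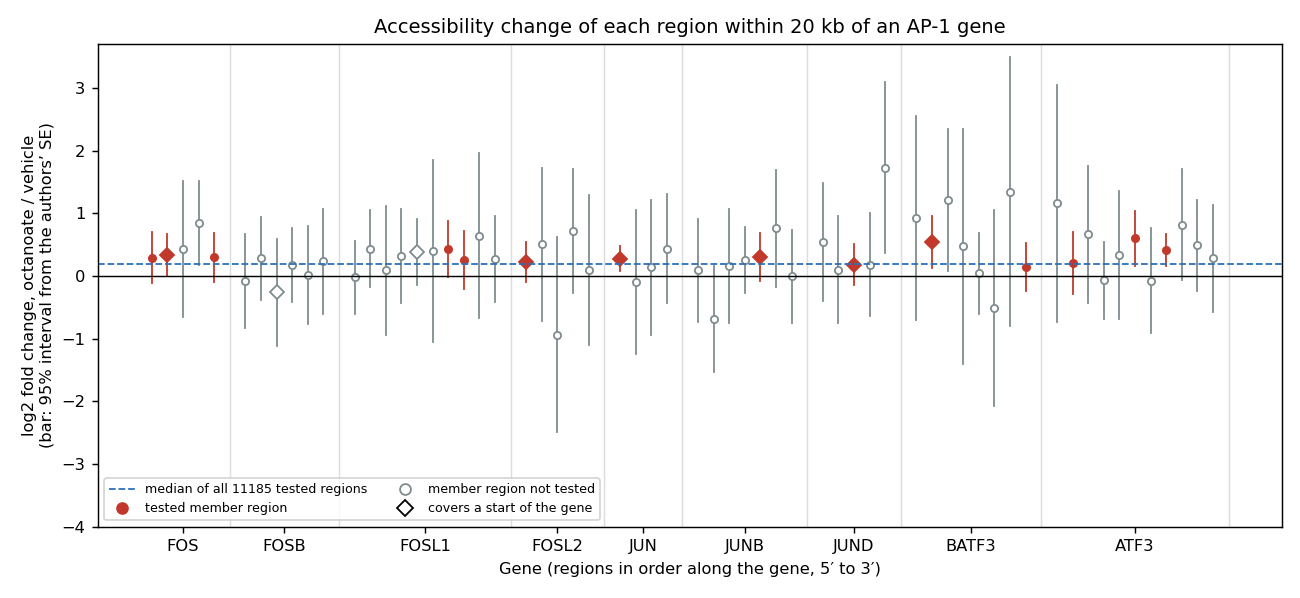
Log2 fold change of octanoate over vehicle for each of the 61 regions, grouped by gene and ordered 5′ to 3′, with bars for the 95% interval from the authors' standard error. Diamonds cover a gene start, filled red symbols are the 14 tested regions and the dashed line is the median of all tested regions, 0.19. The 14 tested regions all lie above 0, and 0 of their intervals lie wholly above the dashed line.

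Among the JUN genes, JUN showed the most precise value. JUN encodes the main activating JUN subunit. Its start region (chromosome 1, 58779833 to 58785994) stood for 3969 to 4917 reads over the 4 libraries. The authors' deposited table implied 459 normalised reads in vehicle and 557 in octanoate at JUN. By the authors' deposited table its log2 fold change was 0.28 (standard error 0.10, 95% interval 0.07 to 0.48, p 0.00807, adjusted p 0.153, DESeq2). That interval corresponds to between 1.05 and 1.40 times the vehicle level. Relative to the tested median the JUN value was 0.09. The other 3 JUN regions, downstream of the gene, had means of 13.1 to 22.6 and, by the authors' deposited table, log2 fold changes from -0.10 to 0.44.

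JUNB, often an antagonist of JUN on shared targets, had a start region (chromosome 19, 12791189 to 12794248) that also covers a HOOK2 start. Its levels implied by the authors' deposited table were 105 in vehicle and 130 in octanoate (log2 fold change 0.30, standard error 0.19, adjusted p 0.460). The region just upstream of JUNB, 0.94 kb from the start, had, by the authors' deposited table, a log2 fold change of 0.26 (standard error 0.27). The smallest JUNB p, 0.110, belonged to a weak region 10.2 kb downstream of the start (chromosome 19, 12801678 to 12802109), with 0.76 (standard error 0.48) in the authors' deposited table. Apart from the start region and the one 0.94 kb before it, the 5 JUNB regions ran from -0.68 to 0.76, and 4 of them cover a start of another protein-coding gene (HOOK2 for 2 of them, PRDX2 with THSD8, and RNASEH2A).

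JUND is the JUN gene expressed most evenly across cell states. At its start region (chromosome 19, 18279443 to 18282603) the implied levels were 174 and 197, and by the authors' deposited table the log2 fold change was 0.18 (standard error 0.17, adjusted p 0.632). It differed from the tested median by -0.0045. The weak region 21.4 kb downstream of the JUND start (chromosome 19, 18259898 to 18260246) had the highest fold change of the 61. It was 1.73 with a standard error of 0.70 and an unadjusted p of 0.0132 in the authors' deposited table. It rested on 78 to 98 reads over the 4 libraries and was not tested. At 19.4 kb from the gene span, it also lay close to the edge of the window.

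FOS, the archetypal immediate early gene, was higher at an unadjusted p under 0.05 in 2 of its 5 regions, against 3.58% of all regions. Of these 2 the start region was tested, and 14.8% of all tested regions were higher at that level. The other was not tested, and the share among all regions not tested was 2.48%. After the tested median was subtracted, the p-values of the 2 were 0.377 (start) and 0.0554 (past the gene). At the start region (chromosome 14, 75276857 to 75280214) the authors' deposited table implied 135 normalised reads in vehicle and 170.5 in octanoate. The log2 fold change at the FOS start was 0.34 in the authors' deposited table (standard error 0.17, p 0.0485, adjusted p 0.332). A region 3.79 kb after the start, just past the end of the gene (chromosome 14, 75282616 to 75284171), had implied levels of 28.1 and 50.3. By the authors' deposited table its log2 fold change was 0.84 (standard error 0.34, p 0.0139), and it was not tested. The flanking pair of tested FOS regions, 19.1 kb upstream and 14.9 kb downstream, had 0.29 and 0.30 in the authors' deposited table, with adjusted p of 0.520 and 0.489. All 5 FOS regions lay above 0, as did all 5 of JUND, against 72.1% of all regions.

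FOSB, which responds to many of the same stimuli as FOS, had the weakest start region of the 8. The mean at the FOSB start (chromosome 19, 45467394 to 45468183) was 25.0, from 195 to 242 reads, in the authors' deposited table. Implied levels were 27.2 in vehicle and 22.7 in octanoate, and by the authors' deposited table the log2 fold change was -0.26 with a 95% interval of -1.12 to 0.60 (standard error 0.44, p 0.551). FOSB was the 1 gene of the 8 whose start region lay below 0. Its value was at percentile 4.19 of the 10867 start regions of protein-coding genes, but its interval includes both the tested median and a fall by more than 2 times (0.461 of vehicle). The strongest FOSB region, inside the gene (chromosome 19, 45468910 to 45470423), had a mean of 49.6 and a log2 fold change of 0.17 by the authors' deposited table (standard error 0.30, p 0.574). Its smallest p, 0.403, belonged to a region 11.5 kb upstream (chromosome 19, 45455635 to 45456483), with 0.28 (standard error 0.34) in the authors' deposited table. The FOSB window had the lowest median of the 9, 0.091, over 6 regions from -0.26 to 0.28.

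FOSL1 encodes FRA1, the FOS protein most tied to invasive and dedifferentiated tumour cells. For this gene, read from the minus strand, the upper end of the span was taken as the start. Its start region (chromosome 11, 65899196 to 65900845), with a mean of 62.2, fell just short of the lowest tested mean of 63.8. The implied levels were 54.1 and 70.3, and the log2 fold change was 0.38 (standard error 0.27, p 0.158) in the authors' deposited table. The strongest FOSL1 region lay at the far end of the gene and covers the CCDC85B start (chromosome 11, 65890215 to 65892131). By the authors' deposited table it had a log2 fold change of 0.43 (standard error 0.23, p 0.0594, adjusted p 0.357). Of the 10 FOSL1 regions 9 lay above 0, against 72.1% of all regions, and 0 had an unadjusted p under 0.05.

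FOSL2 encodes FRA2. Its start region (chromosome 2, 28390095 to 28393803) held 78.9% of the summed mean of the window. There the implied levels were 169 in vehicle and 197 in octanoate (log2 fold change 0.22, standard error 0.16, p 0.162, adjusted p 0.525) in the authors' deposited table. The 4 weaker FOSL2 regions, all inside the gene, had means of 7.39 to 17.9 and spread from -0.94 to 0.72 in the authors' deposited table. The highest of these (chromosome 2, 28406603 to 28407089, standard error 0.50) had the smallest p of the FOSL2 window, 0.151, in the authors' deposited table. The lowest of these was also the lowest of the 61, with a standard error of 0.79 and from 57 to 72 reads.

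ATF3, a stress-induced repressor or activator depending on its partner, held the smallest p of the 61. Its strongest region lay inside the gene (chromosome 1, 212606825 to 212610087), 41.4 kb after the upstream start and 4.93 kb before the inner one. The authors' deposited table implied 252 normalised reads in vehicle and 334 in octanoate at this ATF3 region. The log2 fold change was 0.41 in the authors' deposited table (standard error 0.13, 95% interval 0.16 to 0.66, p 0.00144, adjusted p 0.0741). It was the 1 AP-1 gene region with an adjusted p under 0.1, a level reached by 2.98% of all tested regions. A call would have needed 0.45 at this standard error. After the tested median was subtracted, the ATF3 value was 0.22 with an unadjusted p of 0.0823.

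Another ATF3 region (chromosome 1, 212595746 to 212596932), 18.1 kb before the inner start, had implied levels of 70.8 and 107. With, by the authors' deposited table, a log2 fold change of 0.60 (standard error 0.22, p 0.00675, adjusted p 0.139), it had the highest value of the 14 tested regions. At 2 ATF3 regions the value was below 0. The region 1.21 kb after the upstream ATF3 start had -0.07 (standard error 0.32) and a region between the former pair had -0.08 (standard error 0.43) in the authors' deposited table. Of the 11 ATF3 regions, 9 lay above 0, against 72.1% of all regions. The highest was 1.16, at a weak region 19.2 kb before the upstream start (standard error 0.96).

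BATF3, a small AP-1 protein without a transactivation domain that represses or activates with a JUN partner, is the next gene of the family on chromosome 1. Its span begins 65.6 kb past the end of ATF3. The BATF3 start region (chromosome 1, 212699021 to 212701435) had implied levels of 81.9 in vehicle and 119.5 in octanoate. The log2 fold change at the BATF3 start, 0.55, was the highest of the 8 start regions in the authors' deposited table (standard error 0.21, 95% interval 0.13 to 0.96, p 0.0104, adjusted p 0.171). It stood at percentile 97.0 of the start regions of protein-coding genes, whose median was 0.14. A weak region inside BATF3 (chromosome 1, 212692963 to 212693418) had 1.22 (standard error 0.58, p 0.0356) from 106 to 132 reads, in the authors' deposited table. The strongest BATF3 region, 31.6 kb after the start on the ATF3 side, had 0.15 (standard error 0.19, adjusted p 0.757) in the authors' deposited table.

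From 20 kb before ATF3 to 20 kb after BATF3 the table listed 21 regions, 18 of them above 0, against 72.1% of all regions. The median of the 21 was 0.48. At an unadjusted p under 0.05, 5 of the 21 were higher in the authors' deposited table, against 5.33% of the 13481 regions of chromosome 1. Among tested regions these were 4 of 6, against 20.1% of the 1628 on the chromosome. Of the 21, 2 lay between the windows of the genes and are not among the 61, and 1 of these 2, a tested region, is among the 5. After the tested median was subtracted, 0 of the 21 were higher at that level, and the p-values of the 5 were 0.0622 to 0.20. The median over all regions of chromosome 1 was 0.25. The part of a shift along chromosome 1 in the ATF3 and BATF3 values was not tested.

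**Figure D3:**
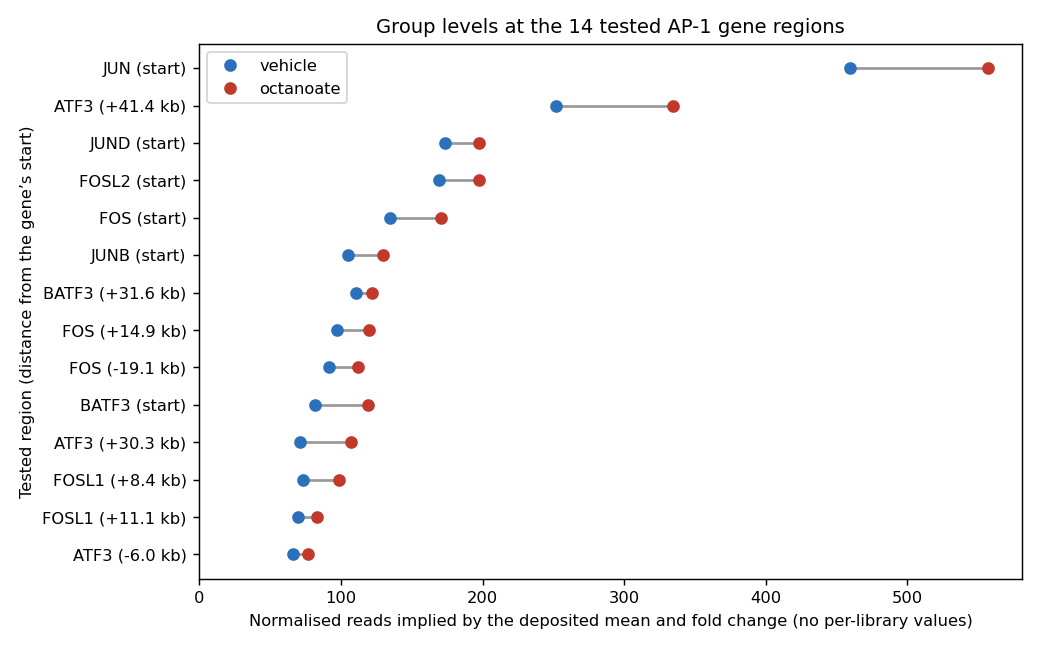
Normalised read levels in vehicle (blue) and octanoate (red) implied by the deposited mean and fold change at the 14 tested regions, ordered by mean, with the distance of the region's nearest edge from the gene start in kb. The table holds no value per library, so no spread is drawn. The octanoate level is the higher of the pair at all 14, from 66.4 and 76.8 at the weakest ATF3 region to 459 and 557 at JUN.

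At their starts and in tested regions, the AP-1 genes did not differ beyond their intervals. The 95% intervals of the 8 start regions all shared the values from 0.13 to 0.48, and those of the 14 tested regions all shared 0.17 to 0.48. The order BATF3, FOSL1, FOS, JUNB, JUN, FOSL2, JUND and FOSB from the highest to the lowest start value is therefore not resolved between neighbours. Among regions not tested some intervals did not overlap, as between the region 13.0 kb upstream of JUNB and the region 21.4 kb downstream of the JUND start. Summed over each window, the log2 ratio of implied levels was 0.39 for ATF3, 0.37 for FOS, 0.34 for BATF3, 0.30 for FOSL1, 0.27 for JUN, 0.25 for JUND, 0.23 for FOSL2, 0.19 for JUNB and 0.086 for FOSB. These sums have no error of their own. By position, the authors' deposited table gave a median log2 fold change of 0.29 over the 8 start regions, 0.42 over 16 others inside a gene span, 0.26 over 17 upstream and 0.26 over 20 downstream. Of the 16 inside a gene span, 6 belonged to ATF3, 4 to FOSL2, 2 each to FOSL1 and BATF3, and 1 each to FOS and FOSB. Position and gene therefore cannot be told apart, and no matching median by position over all regions was taken. Of the regions away from a start, at least 7 cover a start of another protein-coding gene, so they cannot be assigned to the AP-1 gene alone. The promoters used lack some genes, such as FOSL1 and BATF3, so 7 is a lower bound.

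**Figure D4:**
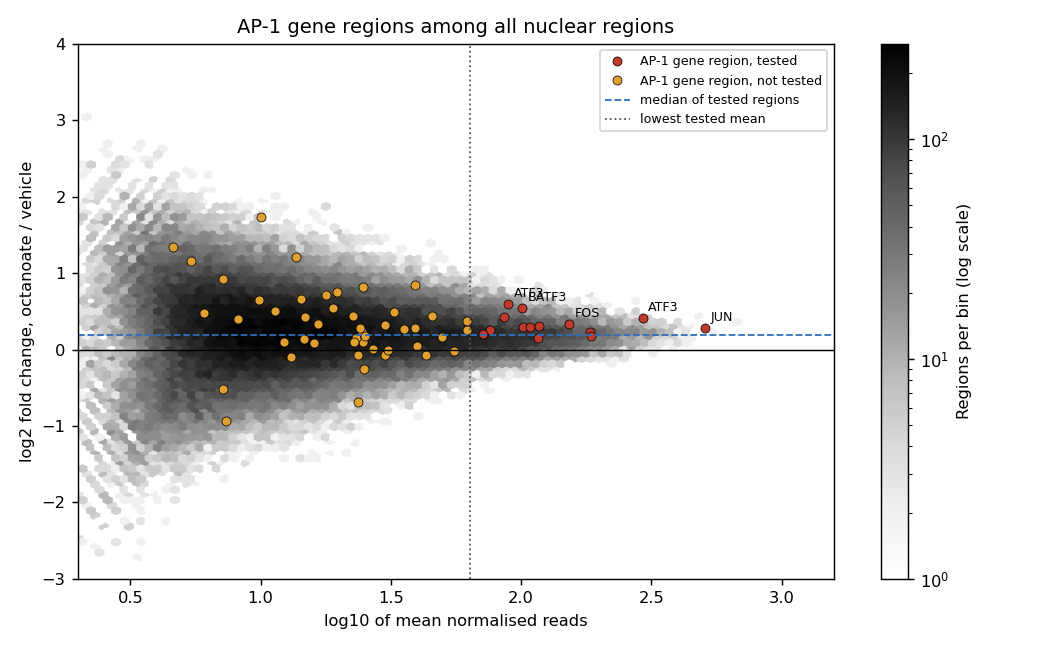
Log2 fold change of octanoate over vehicle against log10 of the mean normalised read count for all nuclear regions (grey, darker bins hold more regions) and the 61 AP-1 gene regions (red tested, yellow not tested). The dashed line is the tested median, 0.19, and the dotted line the lowest tested mean, 63.8. The tested AP-1 gene regions lie between 0.15 and 0.60, inside the cloud of other regions, and the widest spread is among weak regions.

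No tested region of the other genes listed for the pathway passed the threshold, which 1.02% of all tested regions passed. In the authors' deposited table (DESeq2, Benjamini-Hochberg), 0 of 3 tested regions passed for the other AP-1 family genes BATF, BATF2, ATF2, ATF7 and JDP2. The same held for 0 of 4 for 8 upstream kinases (MAPK, JNK and p38 genes with MAP2K4 and MAP2K7), 0 of 9 for SRF and its cofactors, and 0 of 11 for 20 AP-1 target genes. At an unadjusted p under 0.05 their higher regions numbered 1 of 21, 1 of 59, 3 of 35 and 3 of 107, against 3.58% of all regions, and 0 were lower in each list. Their medians in the authors' deposited table were 0.12 (other AP-1 family), 0.19 (kinases), 0.30 (SRF and cofactors) and 0.16 (targets). The smallest p values in the authors' deposited table belonged to regions of BATF2 (log2 fold change 0.94, p 0.0276), MAPK10, which encodes JNK3 (1.04, p 0.0264), the SRF cofactor ELK3 (0.41, p 0.0198, adjusted p 0.230) and the protease gene MMP10 (0.79, p 0.0245). The ELK3 region was tested and the other 3 were not.

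The EGR and IER genes, immediate early genes outside AP-1, had 39 regions with a median of 0.16. At an unadjusted p under 0.05, 4 of the 39 were higher and 0 lower in the authors' deposited table, against 3.58% and 0.179% of all regions. Of their 11 tested regions, 2 rose in the authors' deposited table, against 1.02% of all tested regions. A region at the end of EGR1 (chromosome 5, 138469197 to 138471202) had 0.93 (standard error 0.23, adjusted p 0.0165) and one near IER5 (chromosome 1, 181112352 to 181113621) had 0.90 (standard error 0.19, adjusted p 0.00139). After the tested median was subtracted, the adjusted p of these was 0.356 and 0.157. These came from a normal test with the deposited standard errors and Benjamini-Hochberg over tested regions, and not from DESeq2. The difference between 2 of 11 and the 0 of 14 of the AP-1 genes was not tested.

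The melanoma label was checked against accessibility near marker genes, which is not expression. Regions lay within 1 kb of the start, or of either end where no start was listed, for 5 of 8 melanocyte markers (MITF at a mean of 168, and SOX10, PMEL, DCT and S100B, but not MLANA, TYR or TYRP1) and 3 of 3 markers of undifferentiated melanoma. The same held for 0 of 3 keratinocyte, 3 of 3 fibroblast (means of 10.8 to 16.8), 1 of 3 leukocyte (CD3E, 70.1) and 0 of 2 endothelial markers. Among the markers with a region, no start was listed for SOX10, PMEL, S100B, NGFR, CD3E and the 3 of fibroblasts. Their regions may lie at the far end of the gene, so the classes were not judged by the same rule. Their part in the AP-1 values was not tested.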

How the data were processed

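ATAC-seq libraries of A375 cells, 2 with octanoate and 2 with vehicle by their titles, were compared by the authors in 1 deposited table with no value per library. The submitters' processing notes name Trim Galore, cutadapt, FastQC, Bowtie2, Picard, MACS2, featureCounts, DESeq2, bedtools 2.29.1 and build hg38, without roles. Per the file headers, the deposited signal is a mean normalized read count, the deposited log2 value is a fold change (its standard error is given), the deposited score is a Wald statistic, and the deposited p-value comes unadjusted and adjusted. How reads were scaled, regions merged or Tn5 cuts shifted is not given in the sources used here.

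The deposited adjusted p equalled Benjamini-Hochberg over 11185 regions and was 1 elsewhere, and these others were treated as not tested. Intervals are the fold change with normal 95% limits from the authors' standard error. Group levels were implied from mean and fold change for equal groups. Multiplied by 4, the low means checked were sums of whole reads times 4 steps of 0.413 to 0.512 normalised reads, 1 per library. Of 300 means under 5, 100% had such a solution, against 2.00% of shifted values. Reads over the 4 libraries were bounded from these steps, taken to hold for all regions. No step was assigned to a library, so the depth of each is unknown. Centred p-values used the deposited standard errors. Gene spans and promoters came from RefSeq GRCh38.p14. The starts of FOSL1 and BATF3 rest on strand from general knowledge. Code (Python 3.11.15, pandas 2.3.3, scipy 1.17.1) was tested on simulated data.

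The genes, lists and alternatives were chosen with earlier results of these data known. By the rule for names, all 9 genes are named, with the start region, the strongest region and the region of smallest p for each, and for each list the region of smallest p and any past the threshold. Columns of other samples numbered 0.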

Additional observations from a re-analysis of the deposited data

How the results depend on the processing

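The 0 AP-1 gene regions with an adjusted p under 0.05 stayed 0 at an adjusted p of 0.01, with adjustment over all regions, after centring on the tested median, within the gene spans alone (24 regions) and within 50 kb (101 regions). At an adjusted p of 0.1 there was 1. The 8 regions with an unadjusted p under 0.05 became 2 after centring and 5 among tested regions alone, which are fewer by construction. They numbered 6 within gene spans and 9 within 50 kb. The median of 0.28 became 0.095 relative to the tested median and 0.053 relative to the median of all regions. Under the other planned settings it ran from 0.22 (1 value per gene) to 0.36 (gene spans). The value with 1 value per gene, 0.224, did not exceed the median of all regions, 0.229. Leaving out each gene in turn, added after the data were seen, gave 0.28 to 0.30. The error of the median was not measured. The 2 regions of the lists past the threshold became 1 within gene spans, since the IER5 region lies outside its gene, and 3 at an adjusted p of 0.1.

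No paired analysis was possible because values of single libraries are not in the table used. Leaving out a replicate was not run for the same reason. At the authors' standard errors, a call needed a log2 fold change of 0.36 at JUN and 0.88 at the weakest tested region, and 47 regions were not tested.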
